A study of Homo sapiens with 12 samples.

Results

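Keratins and epithelial regulators were followed as 10 listed genes: the keratins KRT7, KRT8, KRT18, KRT19, KRT15, KRT17, KRT80 and KRT81, the transcription factor GRHL1 and the splicing regulator ESRP1. Members were all probe sets that the array's annotation assigns to 1 of these symbols alone, which gave 14 probe sets for 8 genes, out of 54613 non-control probe sets and 19775 genes. KRT17 and KRT81 had no such probe set and were not analysed here. KRT7 had 4 probe sets, KRT19, GRHL1 and ESRP1 had 2 each, and the other 4 genes had 1.

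All cells were MDA-MB-231, a mesenchymal-like human breast carcinoma cell line, and total RNA was hybridised to 12 Affymetrix arrays, 4 lettered A to D in each of 3 groups. Sharp1 cells overexpressed Sharp1, a basic helix-loop-helix repressor encoded by BHLHE41. In shHIF cells, retroviral hairpins depleted HIF1a and HIF2a, the oxygen-regulated subunits of the hypoxia-inducible factors, and shGFP cells carried a retroviral hairpin against GFP as the control of both comparisons. All were grown in serum-containing medium without treatment. The sources used here name neither the vector of the Sharp1 cells nor whether a line was a pool or a clone, so effects of Sharp1 and of a difference in construct cannot be told apart. The labels call the replicates biological without naming separate cultures, and all p-values reflect only how these arrays vary.

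Keratins are the intermediate filament proteins of epithelial cells. A type I chain (KRT15, KRT18, KRT19) pairs with a type II chain (KRT7, KRT8, KRT80) to form the filament, which desmosomes and plakin linkers tie to the cell surface. KRT8 and KRT18 are the pair of simple epithelia, KRT7 and KRT19 mark ductal and luminal epithelia, and KRT15 is known from the basal layer of stratified epithelia. GRHL1 belongs to the grainyhead-like family, which activates epithelial barrier and desmosome genes, and ESRP1 directs epithelial exon choices. Mesenchymal-like carcinoma lines often keep some simple keratins with little ESRP1 or E-cadherin.

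The HIF transcripts followed the labels in shHIF cells, and BHLHE41 rose in Sharp1 cells on some of its probe sets. It rose on its most responsive probe set, at 9.24 against 3.89 in shGFP cells, and fell on its brightest, at 4.56 against 6.62. The lower reading of each pair was below background, so the size of neither difference is exact. Of the remaining BHLHE41 probe sets, 1 was called higher by 1.59 and 1 differed by -0.13 without a call. In shHIF cells EPAS1, the gene of HIF2a, fell by 2.85 on its brightest probe set and HIF1A by 0.73. In Sharp1 cells that EPAS1 probe set was called lower too, by 0.71, with every array below the shGFP arrays, while HIF1A was not called. The remaining EPAS1 probe sets were below background in all groups. They differed from shGFP by -0.12 and 0.11 in shHIF cells and by 0.01 and 0.10 in Sharp1 cells, without a call. Correlations of at least 0.996 joined arrays of a group, against at most 0.995 between groups. Bacterial spike-in signal averaged 9.81 to 9.91 on Sharp1 arrays, 9.52 to 9.84 on shHIF arrays (lowest on A and D) and 9.82 to 9.95 on shGFP arrays. The 3′ minus 5′ signal of actin, a sign of RNA quality, spanned 0.56 to 0.85 in Sharp1, 0.62 to 0.94 in shHIF and 0.59 to 0.74 in shGFP.

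The line's identity was read from marker genes by their brightest probe set. All 10 markers of a mesenchymal-like breast line were well above background, among them vimentin at 14.55 in Sharp1, 14.22 in shHIF and 14.48 in shGFP cells, and ZEB1 at 10.58, 10.44 and 10.50 in the same groups. E-cadherin (CDH1) read 3.97, 4.00 and 4.06, and the epithelial regulator GRHL2 read 3.73, 3.86 and 3.82, all below background. Of 8 genes listed as absent from such a line, 4 were nevertheless well above background in every group, namely EPCAM, GATA3, ERBB3 and ESR1. EPCAM stood at 8.92, 9.20 and 9.54. ERBB3 (7.20, 5.70 and 6.89) and ESR1 (6.29, 6.46 and 6.27) stayed under the stricter 99th percentile level given below, 7.58 to 7.81.

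Of the leukocyte markers 1 of 7, of the fibroblast markers 2 of 8 and of the keratinocyte markers 2 of 8 were well above background in every group. In shGFP cells these read 5.84 for ITGAM (leukocytes), 7.57 for COL1A1 and 6.06 for PDGFRB (fibroblasts), and 12.58 for SFN and 11.18 for KRT10 (keratinocytes). Among the other markers, PTPRC, CD3E, DCN, LUM, KRT5 and KRT14 were below background in all 3 groups. PTPRC was called higher in both comparisons (0.44 in Sharp1 and 0.37 in shHIF) while its mean stayed at 4.45 or less. The fibroblast marker COL3A1, also below background, was called higher in both (0.54 in Sharp1 and 0.34 in shHIF). PDGFRB, well above background, was called higher in Sharp1 cells by 0.32, and PDGFRA and LCP2, both below background, were called higher in shHIF cells by 0.29 and 0.43. On the log2 scale, the summed leukocyte signal spanned 7.42 to 7.66 in Sharp1, 7.56 to 7.72 in shHIF and 7.43 to 7.66 in shGFP, and that of fibroblasts 8.57 to 8.83, 8.67 to 8.83 and 8.61 to 8.76. Keratinocyte sums were 12.93 to 13.10 in Sharp1, 13.05 to 13.14 in shHIF and 13.02 to 13.18 in shGFP. For luminal markers, 5 of 9 of them well above background, the sums were 9.87 to 9.92 in Sharp1, 10.00 to 10.08 in shHIF and 10.09 to 10.19 in shGFP, with PGR, FOXA1 and KRT20 below background in every group. The luminal receptor ERBB3 moved in the order of KRT19, at 7.20 in Sharp1, 5.70 in shHIF and 6.89 in shGFP cells (log2 0.31 and -1.19 against shGFP, both called), while SPDEF fell by 0.88 in Sharp1 and by 0.38 in shHIF cells. GATA3 stood in the opposite order, at 8.45 in Sharp1, 8.82 in shHIF and 8.57 in shGFP cells. It was called higher in shHIF cells by 0.25 and not called in Sharp1 cells. MUC1 and ESR1 were called in neither comparison. The part of these markers in the keratin values was not tested.

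Background was set by the 135 probe sets of olfactory receptor genes and pseudogenes. The genes are silent in most tissues, but the highest readings in shGFP cells were of pseudogenes, such as OR7E37P (9.15) and OR7E104P (8.02). Such readings raise the level, above all the 99th percentile, which lay between OR7E12P (6.87) and OR7E104P in shGFP cells. The highest reading of a receptor gene there was 5.82 (OR12D2). The 95th percentile of all 135 was 5.60 in Sharp1, 5.66 in shHIF and 5.62 in shGFP. A probe set was above background where its group mean passed that level, and well above where each array also passed 5.41, the median of all probe sets. Probe sets differ in affinity, so these readings say which transcripts were detectable and do not rank genes by abundance.

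By this measure 8 of the 14 member probe sets were above background in Sharp1 cells, 7 in shHIF cells and 8 in shGFP cells, where 46.9%, 46.2% and 46.8% of all probe sets were. KRT7, KRT8, KRT18, KRT19, KRT15 and KRT80 were each well above background in all groups on their brightest probe set. KRT15 did so narrowly, at 6.60 ± 0.15 in Sharp1, 6.31 ± 0.16 in shHIF and 6.23 ± 0.05 in shGFP (SD, n = 4 each). With the stricter 99th percentile (7.58 to 7.81), KRT15, GRHL1 and the second KRT7 probe set dropped out and 5 probe sets were left in every group, those of KRT7, KRT8, KRT18, KRT19 and KRT80. GRHL1 crossed the level between groups: it was well above background in Sharp1 and shGFP cells and below it in shHIF cells.

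**Figure D1:**
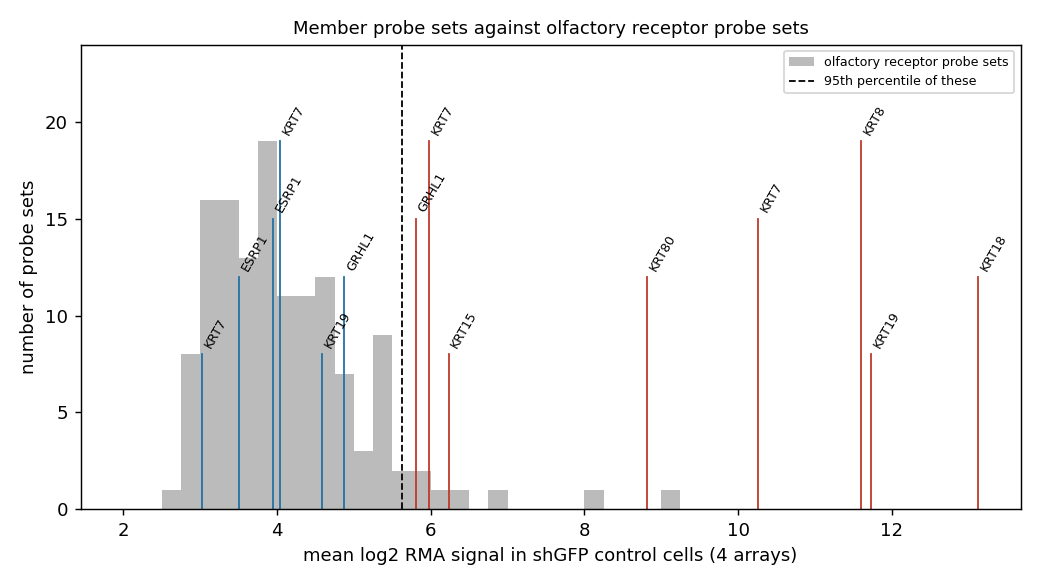
Mean log2 signal in shGFP cells of the 14 member probe sets (vertical lines, red above and blue below the dashed background level, with heights staggered for legibility only) over a histogram of the 135 olfactory receptor gene and pseudogene probe sets. The brightest probe sets of KRT7, KRT8, KRT18, KRT19, KRT15, KRT80 and GRHL1 stand to the right of the level at 5.62. A second KRT7 probe set stands there too. The remaining probe sets of KRT7, KRT19 and GRHL1 and both of ESRP1 lie to its left, among the olfactory receptors.

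In Sharp1 cells KRT7 rose most, KRT19, KRT15 and GRHL1 rose by smaller amounts, and no member was called lower. KRT7, the type II keratin of ductal epithelia, rose 2.03-fold (log2 1.02, SE 0.06, n = 4 per group), GRHL1 1.38-fold (log2 0.47, SE 0.11), KRT19 1.30-fold (log2 0.38, SE 0.06) and KRT15 1.29-fold (log2 0.37, SE 0.09). These were the 4 of 14 probe sets called higher by limma at an adjusted p under 0.05 over all probe sets, where 9.82% of all were called higher, and 0 of 14 were called lower, where 8.26% were.

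Bright probe sets pass the test more often. Among those well above background in all groups, 33.3% were called either way in Sharp1 cells, and 3 of the 7 such member probe sets were, a share near that background. The median difference of the 14 was 0.06, against -0.01 over all probe sets.

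KRT7 read 11.23, 11.50, 11.18 and 11.22 on Sharp1 arrays A to D, against 10.26, 10.22, 10.25 and 10.33 on shGFP arrays (limma adjusted p = 3.47e-12). Every Sharp1 array lay above every shGFP array, and array B was the highest of its group. In shHIF cells KRT7 read 10.27, 10.41, 10.34 and 10.50, a difference of 0.11 from shGFP (95% interval -0.01 to 0.24, adjusted p = 0.193) with overlapping groups. The remaining 3 KRT7 probe sets read 6.02, 4.07 and 2.99 on average over the 12 arrays and differed from shGFP by 0.08, 0.20 and -0.04 in Sharp1 cells and by 0.06, -0.09 and -0.05 in shHIF cells, with no call. The rise was thus called on 1 probe set of 4, and the mean of all 4 differed by 0.32 (adjusted p = 0.000572).

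KRT15, a basal keratin, read 6.41, 6.73, 6.70 and 6.56 in Sharp1 cells against 6.21, 6.17, 6.26 and 6.29 in shGFP cells (adjusted p = 0.00494). These groups did not overlap, though the readings stayed close to background. In shHIF cells KRT15 read 6.48, 6.10, 6.33 and 6.31, which differed from shGFP by 0.08 (95% interval -0.11 to 0.26) with overlap.

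**Figure D2:**
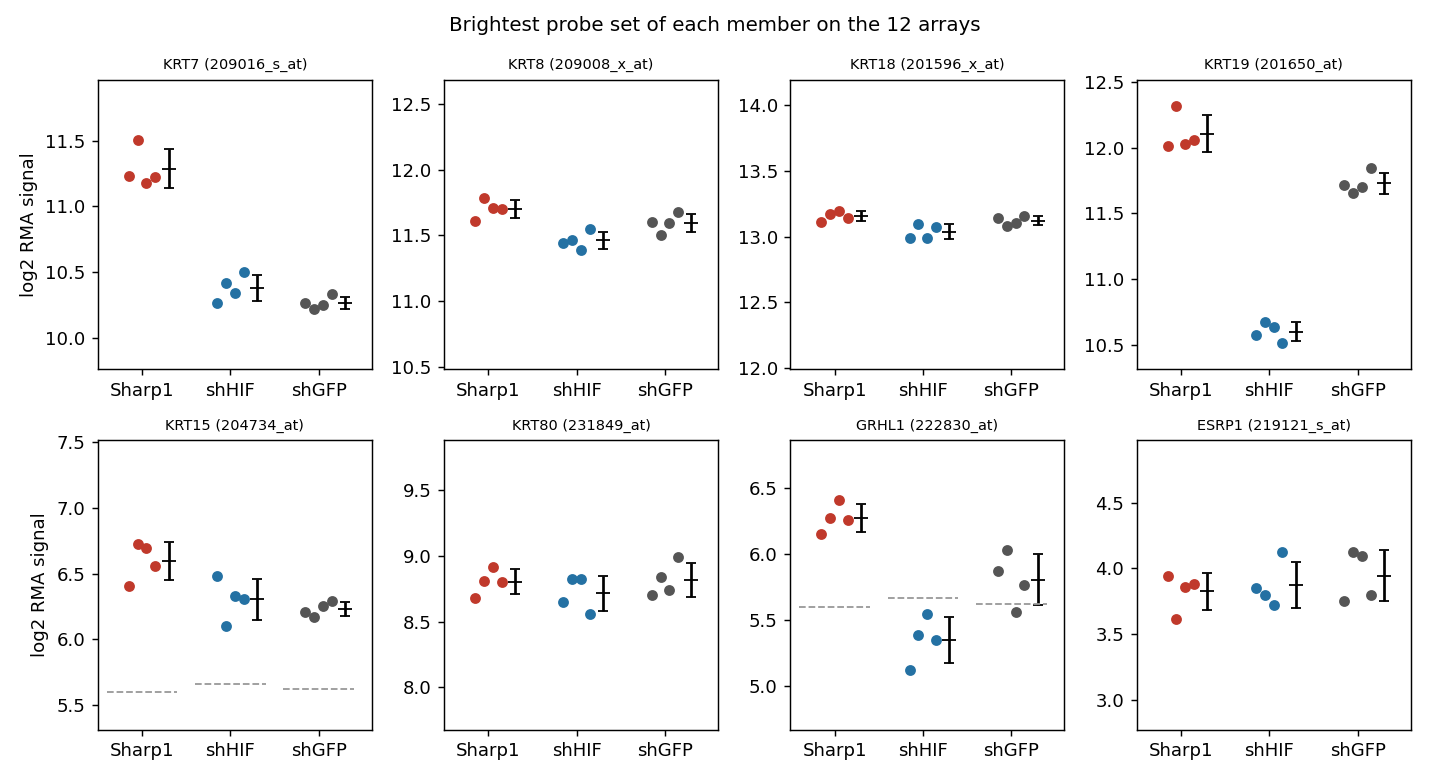
Log2 signal of the brightest probe set of each of the 8 genes on each array (points, replicates A to D from left to right) for Sharp1, shHIF and shGFP cells, with mean and SD (n = 4) beside them and the background level dashed where it falls in the panel. All panels span the same width in log2 units. KRT7 stands apart in Sharp1 cells, and KRT19 and GRHL1 are highest in Sharp1 and lowest in shHIF cells.

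After depletion of both HIF alpha subunits, KRT19 fell most, GRHL1 and KRT8 fell less, and no member was called higher. KRT19 kept 45.8% of the control signal (log2 -1.13, SE 0.06, adjusted p = 4.84e-13), GRHL1 72.8% (log2 -0.46, SE 0.11, adjusted p = 0.00246) and KRT8 91.1% (log2 -0.13, SE 0.04, adjusted p = 0.0312). They made 3 of 14 probe sets called lower, where 11.5% of all probe sets were, and 0 of 14 were called higher, where 10.7% were. Of the 7 member probe sets well above background in all groups, 2 were called, where 39.3% of such probe sets were called either way. The median difference of the 14 was -0.06, against 0.02 over all probe sets. In RNA from whole cultures, fewer cells expressing a keratin and less of its RNA per cell cannot be told apart.

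KRT19, the type I keratin without the usual tail domain, read 10.58, 10.67, 10.63 and 10.51 on shHIF arrays, against 11.71, 11.65, 11.70 and 11.84 on shGFP arrays. Every shHIF array lay below every shGFP array. On Sharp1 arrays the same probe set read 12.02, 12.32, 12.03 and 12.06, wholly above shGFP (adjusted p = 1.61e-05). The second KRT19 probe set was below background in every group, at 4.47 in Sharp1, 4.60 in shHIF and 4.59 in shGFP cells, and was not called. Averaging both probe sets of the gene left KRT19 at -0.56 in shHIF cells (adjusted p = 1.75e-06) and at 0.13 in Sharp1 cells, where the call was lost (adjusted p = 0.128).

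GRHL1 read 6.16, 6.28, 6.41 and 6.26 in Sharp1 cells, 5.12, 5.38, 5.55 and 5.34 in shHIF cells, and 5.87, 6.03, 5.56 and 5.76 in shGFP cells. Neither Sharp1 nor shHIF arrays overlapped the control, although shHIF C nearly met shGFP C. All shHIF readings were below background, so the size of the fall is limited by that floor. The shHIF call was lost without arrays A and D, those with the lowest spike-in signal (log2 -0.34, adjusted p = 0.0559). A second GRHL1 probe set read 4.92, 4.88 and 4.88 in Sharp1, shHIF and shGFP cells, below background and without a call, and with both averaged the differences were 0.26 in Sharp1 and -0.22 in shHIF cells, both still called (adjusted p = 0.0242 and 0.0423).

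GRHL1 and KRT8 were the 2 members with an entry in the RefSeq promoter table used here (GRCh38.p14), which holds 250 bases before and 50 after a gene's start. The GRHL1 window is shown because that gene was called in both comparisons. It lies at chr2:9951443-9951742 on the plus strand, is 79.7% G and C, and reads 5′ to 3′:
GRHL1 promoter window: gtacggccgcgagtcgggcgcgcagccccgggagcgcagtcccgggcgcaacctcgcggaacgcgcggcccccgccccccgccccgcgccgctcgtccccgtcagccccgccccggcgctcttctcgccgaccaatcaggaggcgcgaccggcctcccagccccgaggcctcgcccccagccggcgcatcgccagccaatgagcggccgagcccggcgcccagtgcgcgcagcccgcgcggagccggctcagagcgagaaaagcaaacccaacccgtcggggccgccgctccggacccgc
It was searched on both strands for CACGTG, the E-box that BHLHE41 can bind, for ACGTG (which CACGTG contains) and GCGTG, the cores of hypoxia response elements, and for AACCGGTT, a grainyhead-like site. None of these is in the GRHL1 window or in that of KRT8 (chr12:52926420-52926719, minus strand), hence no base is in capitals. Of 35116 promoter windows of the same length, 7.26% hold CACGTG, 21.4% ACGTG, 36.5% GCGTG and 0.134% AACCGGTT.

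KRT8 and KRT18 neighbour each other on chromosome 12. KRT8 read 11.61, 11.78, 11.71 and 11.70 in Sharp1 cells, 11.44, 11.47, 11.39 and 11.55 in shHIF cells, and 11.60, 11.50, 11.60 and 11.68 in shGFP cells. The shHIF and shGFP arrays overlapped, and the call in shHIF cells was lost without shGFP A, C or D or without shHIF A, B or C (adjusted p from 0.0528 to 0.116), and without a trend in the prior spread (0.156). In Sharp1 cells KRT8 differed from control by 0.11 (95% interval 0.01 to 0.20, adjusted p = 0.115), called only without Sharp1 A (adjusted p = 0.0460).

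KRT18 read 13.11, 13.17, 13.20 and 13.14 in Sharp1 cells, 12.99, 13.09, 12.99 and 13.07 in shHIF cells, and 13.14, 13.08, 13.11 and 13.15 in shGFP cells. It differed from control by 0.04 in Sharp1 cells (95% interval -0.03 to 0.10) and by -0.08 in shHIF cells (-0.15 to -0.02, adjusted p = 0.0695), with overlap in both. The shHIF difference passed without shHIF B (adjusted p = 0.0328), without shHIF D (0.0392) and without dim probe sets (0.0434). The KRT8 and KRT18 probe sets are of a design that can bind related transcripts, and both genes have many processed pseudogenes.

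KRT80, a type II keratin that lies beside KRT7 on chromosome 12, read 8.68, 8.81, 8.92 and 8.80 in Sharp1 cells, 8.65, 8.83, 8.83 and 8.56 in shHIF cells, and 8.71, 8.84, 8.74 and 9.00 in shGFP cells. It was not called in either comparison, with differences of -0.02 in Sharp1 cells (95% interval -0.17 to 0.13) and -0.10 in shHIF cells (-0.25 to 0.04). Its neighbour KRT7 differed by 1.02 in Sharp1 and by 0.11 in shHIF cells. KRT15 and KRT19 are likewise neighbours, on chromosome 17, and in shHIF cells they differed from control by 0.08 and -1.13.

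ESRP1 was below background in all groups on both probe sets. The brighter read 3.94, 3.62, 3.86 and 3.88 in Sharp1 cells, 3.85, 3.80, 3.72 and 4.12 in shHIF cells, and 3.75, 4.13, 4.09 and 3.80 in shGFP cells. Its differences of -0.12 and -0.07 in Sharp1 and shHIF cells were not called (adjusted p = 0.580 and 0.731), nor were those of the other probe set, -0.05 and 0.18. A signal for ESRP1 was thus not detectable on these arrays under any of the 3 conditions.

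**Figure D3:**
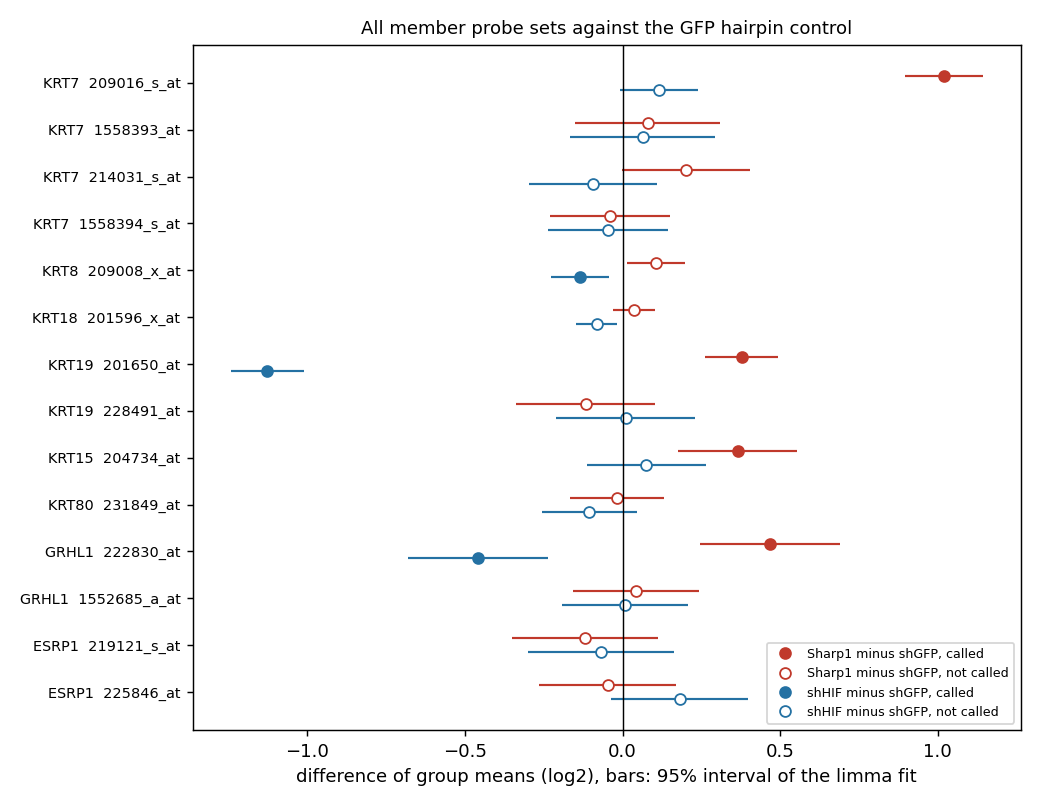
Difference of group means (log2) for all 14 member probe sets, Sharp1 minus shGFP in red and shHIF minus shGFP in blue, with 95% intervals from the limma fit and filled points where the adjusted p was under 0.05. KRT7, KRT19, KRT15 and GRHL1 lie to the right in red on 1 probe set each, and KRT19, GRHL1 and KRT8 lie to the left in blue.

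Groups did not overlap for 4 of the 14 probe sets in Sharp1 against shGFP, where 21.6% of all probe sets did not, and for 2 of 14 in shHIF against shGFP, where 22.3% did not. Both comparisons use the same shGFP arrays, so the contrast of Sharp1 with shHIF was also tested directly. There 7 of 14 member probe sets were called higher in Sharp1 cells, where 15.3% of all were, and 0 were called lower, where 13.8% were. Among probe sets well above background, 49.6% were called either way, and 5 of the 7 such member probe sets were.

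In this contrast KRT19 differed by 1.51 (SE 0.06, 2.84-fold higher in Sharp1 cells, adjusted p = 5.38e-16) and KRT7 by 0.91 (SE 0.06, adjusted p = 1.77e-11). GRHL1 differed by 0.93 (SE 0.11, adjusted p = 2.21e-07), a size limited by its shHIF signal, which was below background. KRT8 and KRT18 were higher by 0.24 and 0.12 (adjusted p = 0.000146 and 0.00564), with every Sharp1 array above every shHIF array for both. The KRT18 call was lost without a trend in the prior spread (adjusted p = 0.121). KRT15 was higher by 0.29 (adjusted p = 0.0175), a call lost without shHIF B (0.0801), Sharp1 B (0.0594) or Sharp1 C (0.0643).

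A dim KRT7 probe set, below background in both groups, was called higher by 0.30 (adjusted p = 0.0245), and lost that call in 5 of its 18 alternatives. KRT80 differed by 0.09 (95% interval -0.06 to 0.24). For ESRP1 the differences were -0.05 and -0.23, not called, and the second passed only without shHIF D (adjusted p = 0.0282).

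Over the 12 arrays, the brightest probe sets of KRT8 and KRT18 correlated at r = 0.914, KRT19 and GRHL1 at 0.890, KRT8 and KRT19 at 0.859, and KRT7 and KRT15 at 0.808. KRT7 and KRT80 stood at 0.0973, and all ESRP1 correlations lay between -0.371 and -0.145. The arrays share 3 group means and their normalization, so these values describe this set of arrays. Like patterns were sought among 2356 genes whose group means spanned at least 0.5 and passed background in at least 1 group. Of these, the 5 most like KRT19 were TNIP2, BCAP29, CCDC85C, CDK19 and PAOX (r = 0.992 to 0.993). The 5 most like KRT7 were MRC2, MPP1, DALRD3, CASP4 and GLRX (r = 0.9805 to 0.9903). TNIP2, for example, read 9.51 in Sharp1, 8.62 in shHIF and 9.30 in shGFP cells, and MRC2 read 10.07, 8.79 and 8.57.

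The other numbered keratins were mostly at background. Of 38, 36 were not above background in any group, including the basal pair KRT5 (5.25 in Sharp1, 5.21 in shHIF and 5.27 in shGFP) and KRT14 (3.94, 3.95 and 4.03). KRT10, of differentiating epidermis, was well above it in every group. KRT83, a hair keratin, was so only narrowly, at 6.04 in Sharp1, 6.04 in shHIF and 6.08 in shGFP cells. These readings stayed under the stricter 99th percentile level, 7.58 to 7.81. In Sharp1 cells 1 of the 38 was called higher, KRT33B at 0.33 and below background, and 0 lower, where 14.0% of genes were higher and 10.7% lower by their brightest probe set. In shHIF cells 4 were higher and 0 lower, where 16.0% and 12.3% of genes were: KRT10 rose by 0.28, at 11.45 ± 0.06 against 11.18 ± 0.06 (SD, n = 4 each), and KRT72, KRT222 and KRT13, all below background, by 0.33, 0.29 and 0.28.

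Of 31 measured epithelial regulators and junction genes, 4 rose and 6 fell in Sharp1 cells (median -0.11, against -0.002 over all genes). EHF, an epithelial ETS factor, rose by 0.77, AP1M2, an epithelial clathrin adaptor subunit, by 0.55, and the transcription factors TFAP2A and KLF5 by 0.44 and 0.25. MAL2, an apical transport protein, fell by 2.07, KLF4, a transcription factor, by 1.17, SPINT2, a protease inhibitor, by 0.95, and LSR, of tricellular junctions, by 0.71. EPCAM and TFAP2C also fell, by 0.62 and 0.63.

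In shHIF cells 4 of the 31 rose and 4 fell (median 0.04, against 0.05). TFAP2A fell by 0.85, LSR by 0.36, EPCAM by 0.34 and AP1M2 by 0.23, while the surface protein CD24 rose by 0.63, KLF4 by 0.27, GATA3 by 0.25 and TFAP2C by 0.23. TFAP2A read 8.16 ± 0.07 in Sharp1, 6.87 ± 0.14 in shHIF and 7.72 ± 0.09 in shGFP cells, so its groups stood in the same order as those of KRT19 and GRHL1. Over all genes 14.0% were called higher and 10.7% lower in Sharp1 cells, and 16.0% and 12.3% in shHIF cells.

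Of 26 genes listed under keratin filament linkers and desmosomes, 4 rose and 9 fell in Sharp1 cells (median -0.06). Over all genes 14.0% were called higher and 10.7% lower. The list also holds genes of other kinds, among them TRADD, STUB1 and KRTCAP2. TRADD and KRTCAP2 were called higher in both comparisons and STUB1 in shHIF cells, so the rises are not all of linkers or desmosome genes. Periplakin (PPL) fell by 1.18, the desmosomal cadherin DSC2 by 1.11, plakophilin PKP3 by 0.67 and desmoplakin (DSP), which anchors keratins at the desmosome, by 0.35. The 4 that rose were the desmosomal membrane protein PERP by 0.27, TRADD, a keratin-binding adaptor, by 0.18, the plakin DST by 0.15 and KRTCAP2 by 0.13.

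In shHIF cells 7 of these 26 rose and 7 fell (median -0.04), where 16.0% of all genes were called higher and 12.3% lower. DSC2 fell by 1.04, PPL by 0.54, DSG2, another desmosomal cadherin, by 0.44, PERP by 0.43 and DSP by 0.33. PNN rose by 0.37, the linker EPPK1 by 0.32, PKP4 by 0.31 and the ubiquitin ligase STUB1 by 0.30. DSP read 9.97 ± 0.07 in Sharp1, 9.99 ± 0.12 in shHIF and 10.32 ± 0.05 in shGFP cells (SD, n = 4 each). DSC2 read 7.15 ± 0.05, 7.22 ± 0.20 and 8.26 ± 0.13 in the same groups, and for both genes Sharp1 and shHIF arrays lay wholly below the control. PPL and EPPK1 were near or below background, which limits the size of their changes.

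**Figure D4:**
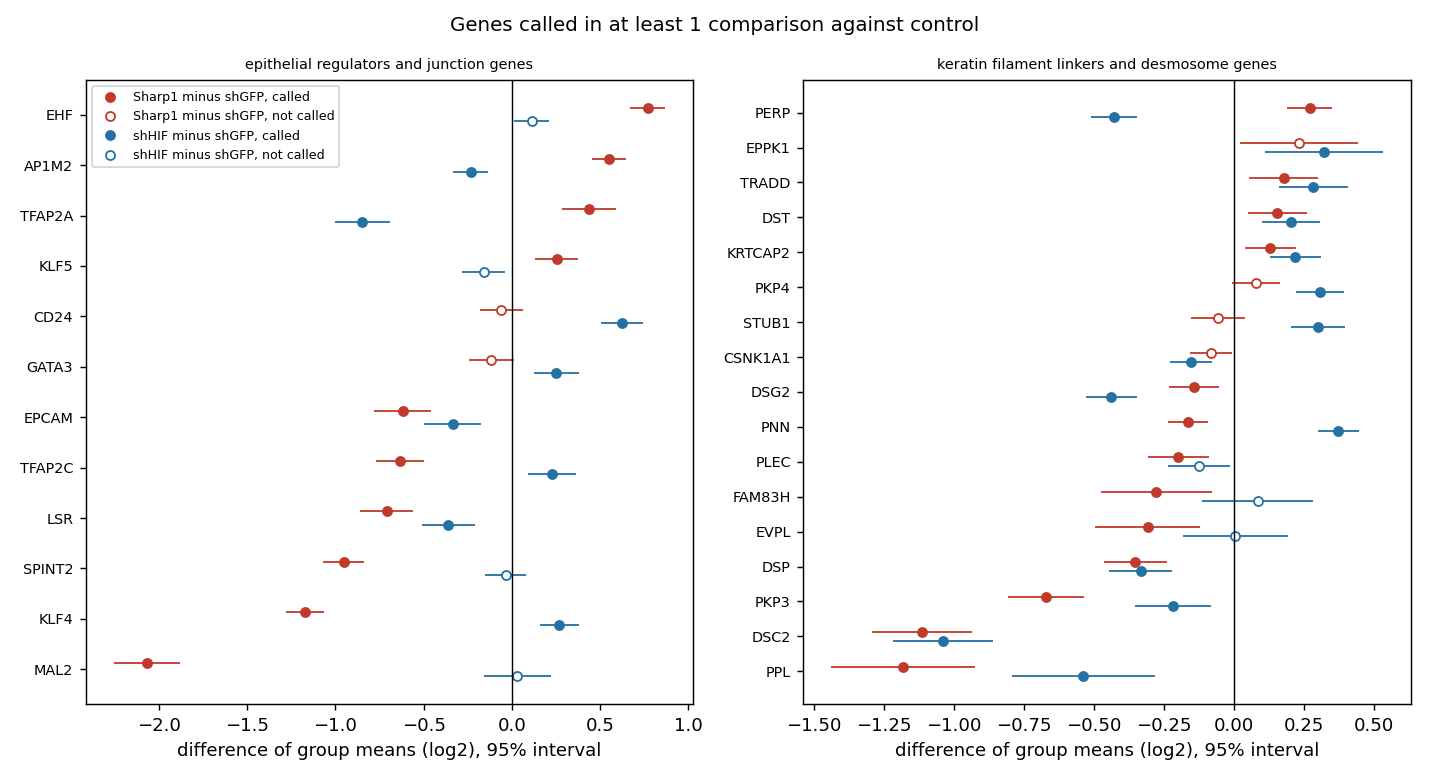
Difference of group means (log2) with 95% intervals for the epithelial regulators and junction genes (left) and the keratin linkers and desmosome genes (right) called in at least 1 comparison, Sharp1 minus shGFP in red and shHIF minus shGFP in blue, filled where called. In Sharp1 cells MAL2 lies at -2.07, PPL at -1.18 and KLF4 at -1.17, and TFAP2A, AP1M2, KLF4, TFAP2C, PERP and PNN were called on opposite sides in the 2 comparisons.

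Other intermediate filament genes gave 1 rise and 5 falls of 15 in Sharp1 cells, where 14.0% of all genes were called higher and 10.7% lower. In shHIF cells there were 1 rise and 4 falls, where 16.0% and 12.3% were. Nestin (NES) fell by 0.41 and 0.49, and lamin A (LMNA) by 0.31 and 0.14, in Sharp1 and shHIF cells. Vimentin rose by 0.08 in Sharp1 cells and fell by 0.26 in shHIF cells, and the lens filament gene BFSP1 fell by 0.39 in Sharp1 cells and rose by 0.71 in shHIF cells. Lamin B1 (LMNB1) fell by 0.39 in Sharp1 cells, and synemin (SYNM) fell by 0.19 in Sharp1 and by 0.28 in shHIF cells.

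Of 22 repressors of epithelial genes and mesenchymal genes, 3 rose and 5 fell in Sharp1 cells, where 14.0% of all genes were called higher and 10.7% lower. In shHIF cells 4 rose and 5 fell, where 16.0% and 12.3% were. The adhesion receptor CD44 rose by 0.90 and the transcription factor TCF4 by 0.45 in Sharp1 cells. SNAI2, a repressor of epithelial genes, fell by 1.39 in Sharp1 cells and rose by 0.36 in shHIF cells, reading 8.56 ± 0.07 in Sharp1, 10.32 ± 0.06 in shHIF and 9.96 ± 0.05 in shGFP cells. Fibronectin (FN1) rose by 1.21 in Sharp1 and by 0.33 in shHIF cells, and the calcium-binding protein S100A4 fell by 1.61 and by 0.37 in those groups. ZEB1 differed by 0.08 in Sharp1 and by -0.07 in shHIF cells, without a call. RBFOX2, a splicing factor, fell by 0.21 in Sharp1 and by 0.38 in shHIF cells. PRRX1 fell by 0.52 in Sharp1 and by 0.27 in shHIF cells, with means below background in both. In shHIF cells CDH11 rose by 0.37 and FOXC2, below background, by 0.28, while MBNL1 fell by 0.15.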

How the data were processed

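The deposited values are log2 expression per probe set, made by the authors with RMA per the submitters' processing notes, that is background-corrected, normalized between arrays and summarised. The sources used here do not name the RMA version. RMA values carry no count depth or detection call, so the number of arrays limits precision.

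Gene names came from the platform's annotation, in which 41091 had 1 symbol, 1801 several and 11721 none among the probe sets. The 62 control probe sets were left out of the tests. In R 4.3.3 with limma 3.58.1, a mean per group was fitted to all 12 arrays, with eBayes and trend. The Benjamini-Hochberg adjustment ran over 54613 probe sets per comparison, and an adjusted p under 0.05 was a call. Gene lists were counted by each gene's brightest probe set, in that same fit. The fit was tested on simulated data. Of 35 epithelial and 23 repressor or mesenchymal entries, 31 and 22 were measured.

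Members, lists, markers and alternatives were chosen with earlier results of these data known. Named genes are the members, the targeted genes, level references, and per list and comparison up to 4 called genes each way with the largest change. PTPRC, KRT10 and KRT83, some markers and genes given in both comparisons were chosen after their values were seen.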

Additional observations from a re-analysis of the deposited data

Results flagged for a closer look

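In 42 groups of 4 arrays (14 probe sets in 3 groups), 2 held an array far from the other 3, where chance flags about 1 group in 20. Both were Sharp1 array B. KRT7 read 11.50 there, against 11.18 to 11.23 on the other Sharp1 arrays, a gap of 0.835 of the range of the group. KRT19 read 12.32 there, against 12.02 to 12.06, a gap of 0.853. Without Sharp1 B, KRT7 was higher than in shGFP cells by 0.95 and KRT19 by 0.31, both still called (limma adjusted p = 8.21e-13 and 2.50e-05). Why array B read high was not tested.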

How the results depend on the processing

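Counts of called member probe sets stayed within 1.5 times of 4, 3 and 7 (Sharp1 against shGFP, shHIF against shGFP, Sharp1 against shHIF) in every alternative run. With the replicate letter as a replicate block they were again 4, 3 and 7. The labels do not say whether a letter marks a shared culture or day. Deviations of same-lettered arrays correlated at -0.157 to 0.130 over 12 pairs, and others at -0.167 to 0.205. Taking the 99th instead of the 95th percentile as background left 5 probe sets above it in both Sharp1 and shGFP cells, instead of 8.

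Among alternative values of members, 805 kept their side of the threshold, called or not, 18 lost a call and 5 gained one, and no called value changed sign. Of 804 alternative values of single probe sets, 39 had no call and changed sign. With 1 probe set per gene, fewer features were tested, and calls numbered 5370 instead of 9875, 6095 instead of 12122 and 7588 instead of 15899 in the same order of comparisons. Signals near background limit the values of GRHL1, KRT15 and ESRP1.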
